A study of Mus musculus with 4 samples.

Results

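The cytosolic ribosomal protein genes were examined in splenic CD4+ T cells of mice with and without a conditional deletion of *Satb1*. Members were taken by symbol: every row of the deposited count tables named Rpsa, Rplp0, Rplp1 or Rplp2, or named Rpl or Rps with a number and, where present, the ending a, x, l, l1 or al. This gave 87 of 55367 symbols, 54 of the large subunit and 33 of the small subunit. The pattern took in 4 symbols annotated as pseudogenes (*Rpl32l*, *Rpl6l*, *Rps12l1* and *Rps4l*) and the paralogues *Rpl22l1*, *Rps27l*, *Rpl7l1*, *Rpl36al*, *Rpl39l*, *Rpl3l* and *Rpl10l*. The genes outside the pattern include *Rps3a1* and *Fau*, which also encode proteins of the cytosolic ribosome.

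RNA-seq libraries came from 2 mice labelled WT and 2 labelled *Satb1* conditional knockout (cKO), all of strain C57BL/6, with a single library per mouse. The knockout is *Satb1* F/F; ThPOK-cre, in which Cre deletes the floxed gene in T cells that have committed to the CD4 lineage. For the WT mice the labels give neither a Cre nor a floxed allele, and no sex or age is given per mouse. The methods state an average age of 8 to 12 weeks and mixed sexes for the study as a whole. Replicate numbers name different mice.

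A ribosome is built from RNA and many small basic proteins, and the large and small subunits carry a single copy of nearly all of their proteins, the paired stalk proteins excepted. The genes are therefore transcribed at high and balanced levels, and their messages begin with a run of pyrimidines, the 5′ terminal oligopyrimidine (TOP) motif, through which growth signalling by mTOR and the protein LARP1 sets their translation and stability. In T cells, ribosome production is low at rest and rises steeply when the cell is activated. Some members have a paralogue that can take their place in the ribosome, and loss of *Rpl22* impairs the development of αβ T cells.

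The starts of genes that the comparison turns on are shown so that the pyrimidine runs near them can be seen. The 30-base windows are from RefSeq on GRCm38.p6, on the strand of the gene from 5′ to 3′, and capitals mark an uninterrupted run of C and T that begins within 30 bases of an annotated start and is not exceeded in length by another. The marked runs begin between -22 (*Rps27l*) and 26 (*Rps2* and *Rpl4*) bases from that start, so they need not be where the message begins. *Rps2* (chr17:24720079-24720108, plus strand), *Rpl39* (chrX:37085224-37085253, minus strand) and *Rpl28* (chr7:4792952-4792981, plus strand) are the members called lower in the cKO libraries. *Rpl4* (chr9:64173403-64173432, plus strand) had the highest mean CPM over the 4 libraries, although *Rplp0* was above it in WT 1 and WT 2, and *Rpl35a* (chr16:33056467-33056496, plus strand) had a positive fold change. *Rps27* (chr3:90213631-90213660, minus strand) and *Rps27l* (chr9:66946054-66946083, plus strand) are a gene and its paralogue.
Rps2: ctataaattgTCCCTTCCgcggcgcctccc
Rpl39: gagtcatccaTCCCCCCCTaagctccgcct
Rpl28: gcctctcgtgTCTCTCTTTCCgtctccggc
Rpl4: aggagcgtggCCTTCTCCTCTCCCCgtcat
Rpl35a: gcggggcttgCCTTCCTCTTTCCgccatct
Rps27: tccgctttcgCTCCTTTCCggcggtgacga
Rps27l: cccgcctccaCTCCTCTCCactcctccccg

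Of the 87 members, 64 had a start in the RefSeq promoter table. A run of at least 8 C or T in this window was present at 44 of the 64 (68.8%), against 26.7% of the 27025 genes of the table. The share was 29 of 41 for the large subunit and 15 of 23 for the small subunit. Within the 300 bases from 250 before to 50 after the start, the letters CCGGAAG, on either strand, were found at 25 of 64 members (39.1%) against 9.93% of all genes, and AAGATGG, on either strand, at 10 of 64 (15.6%) against 7.28%. A gene with several annotated starts counted if any of them held the letters, and a match describes the sequence alone. The genes printed above all carried such a run, while the longest was 7 in *Rplp0*, 6 in *Rps3* and 5 in *Rpl22*.

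Between 4495902 and 6555699 counts fell on genes in each library, of which between 2.60% and 3.96% fell on the members. In the knockout check, *Satb1* counts were 5677 (WT 1), 4390 (WT 2), 4958 (cKO 1) and 3986 (cKO 2) (log2 fold change -0.05, edgeR adjusted p = 0.877). A count over the whole gene does not separate deleted from intact transcripts, so it does not check the labels, and directions below follow the labels. *Foxp3*, the gene of the transcription factor of regulatory T cells, had counts of 926 (WT 1), 538 (WT 2), 2127 (cKO 1) and 2573 (cKO 2) and rose, with a log2 fold change of 1.86 (adjusted p = 0.000447 by edgeR). Sex and genotype cannot be told apart: the counts of *Xist*, expressed from an inactive X, were 5447 and 4235 for WT and 9 and 6 for cKO, and those of the Y-linked *Ddx3y* were 0 and 0 against 525 and 597. Summed T cell markers (8 of 8 detected) were at 5612 to 6103 CPM, the count per 1000000 counts of the scaled library, and markers of other cells were uneven. Summed B cell markers (10 of 10 detected) were at 39.9 and 48.6 CPM in WT, 199 in cKO 1 and 78.6 in cKO 2, and summed myeloid markers (10 of 10) at 29.1 and 36.3 against 107 and 63.1. The CD8 T cell sum (2 of 2) was at 47.7 and 58.5 CPM against 34.3 and 26.8, in the same order over the libraries as the ribosomal protein share below, and the red cell sum (5 of 5) at 100.8 and 309 against 10.1 and 219. No marker was at 0 in every library. The cKO 2 library stood apart in having 64.5% of its singly placed reads outside annotated features, against 59.4% to 62.1% in the others, and the lowest mitochondrial share, 1.69% of gene counts against 2.07% to 2.40%.

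The first comparison asked how much of the messenger RNA pool went to ribosomal proteins. Members took 3.77% of gene counts in WT 1 (95% Wilson interval 3.76 to 3.79), 3.96% in WT 2 (3.94 to 3.98), 3.52% in cKO 1 (3.50 to 3.53) and 2.60% in cKO 2 (2.59 to 2.62). Both cKO libraries lay below both WT libraries, and cKO 1 lay nearer to the WT libraries than to cKO 2. The mean share was 3.87% ± 0.131 (SD, n = 2) in WT and 3.06% ± 0.645 (SD, n = 2) in cKO, a difference of -0.807 percentage points or -20.9% of the WT mean. An exact two-sided permutation test gave p = 0.333, the smallest that 2 libraries against 2 can give, so this test could not pass a threshold of 0.05. The intervals cover counting error only and are far narrower than the distance between cKO 1 and cKO 2.

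The subunits showed differences of similar size. Large subunit genes took 2.13%, 2.22%, 1.94% and 1.46% of gene counts in WT 1, WT 2, cKO 1 and cKO 2 (difference of the means -0.470 points, exact permutation p = 0.333). Small subunit genes took 1.64%, 1.74%, 1.57% and 1.14% in the same order (difference -0.337 points, exact permutation p = 0.333). The ratio of large to small subunit counts, which needs no scaling between libraries, was 1.30, 1.27, 1.23 and 1.29, and the genotypes overlapped (log2 difference -0.03, exact permutation p = 0.667). Without cKO 2 the difference in share was -0.351 points for both subunits together and -0.119 points for the small subunit. Without cKO 1 it was -1.26 and -0.554 points. In bulk RNA, fewer cells with abundant ribosomal protein messages and less of these messages per cell cannot be told apart.

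**Figure D1:**
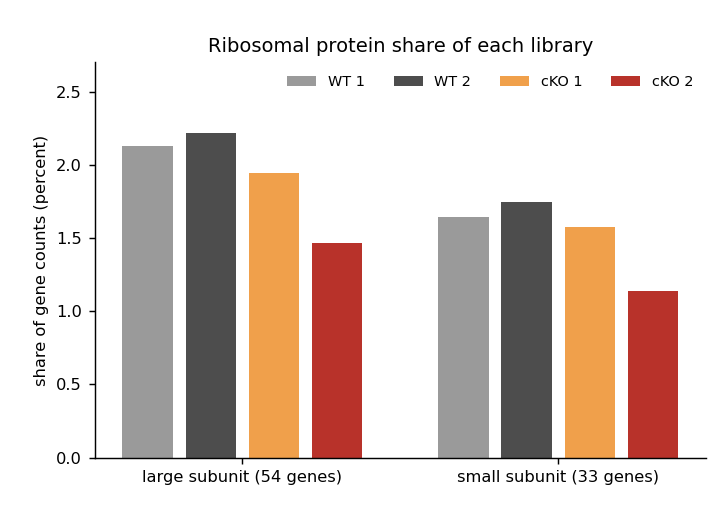
Percent of gene counts on large subunit (54) and small subunit (33) ribosomal protein genes, 1 bar per library with no error bar because each bar is a single library. For both subunits the order from high to low is WT 2, WT 1, cKO 1 and cKO 2, and cKO 2 (1.46% and 1.14%) lies farther from cKO 1 (1.94% and 1.57%) than cKO 1 does from WT 1 (2.13% and 1.64%).

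The second comparison asked which of the genes differed between the genotypes. Of the 87 members, 81 had enough counts to be tested, 49 of the large and 32 of the small subunit. The remaining 6 were *Rpl10l* and *Rps12l1* with 0 counts in every library, *Rpl3l* with 0, 0, 1 and 3, *Rpl6l* with 3, 1, 1 and 0, *Rpl39l* with 2, 1, 3 and 1, and *Rpl24* with 11, 3, 7 and 8 counts in WT 1, WT 2, cKO 1 and cKO 2. *Rpl24* encodes a core protein of the large subunit, and 484 of its exonic bases are shared with another annotated gene, *Gm28037*, by GENCODE M21. *Gm28037* also has a row in the deposited tables, but its part in the low count of *Rpl24* was not tested.

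By edgeR's quasi-likelihood test with Benjamini-Hochberg adjustment over all 12403 genes tested, 3 of the 81 members passed an adjusted p of 0.05, all lower in cKO: *Rps2*, *Rpl39* and *Rpl28*. This is 3.70% of the members, against 4.30% of all genes tested and, in the lower direction alone, 1.95%. None passed in the higher direction, where 2.35% of all genes did. A threshold on the unadjusted p of 0.05 was passed by 36 members, all with lower values in cKO, which is 44.4% against 19.1% of all genes in either direction and 9.39% in the lower direction. The number of calls was close to the background, whereas the number of members with a negative fold change was not: 77 of 81 were under 0 (46 of 49 in the large subunit and 31 of 32 in the small subunit), against 50.2% of all genes tested. The members are not independent observations, since mice of the same genotype also differed mostly in a single direction. The cKO 2 library was below cKO 1 in 75 of the 81 members. The median log2 fold change was -0.33 in the large subunit and -0.32 in the small subunit, against -0.0015 over all genes, and the middle of the distribution was narrow, with quartiles of -0.42 and -0.23 over both subunits.

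*Rps2* (chr17:24718116-24721929, GENCODE M21), a small subunit protein beside the channel where the message enters, had the lowest fold change of all members. It was at 428.6 and 415.9 CPM in WT and 268 and 202 CPM in cKO. The genotypes did not overlap, and *Rps2* fell by 0.84 on the log2 scale (SE 0.13, edgeR adjusted p = 0.0115), a change of -44.3%. *Rpl39* (chrX:37082520-37085402) encodes a small protein in the wall of the tunnel through which the new peptide leaves. It was at 123 and 116 CPM in WT and 79.5 and 60.8 CPM in cKO, again without overlap, and fell by 0.76 (SE 0.14, edgeR adjusted p = 0.0193). *Rpl28* (chr7:4792874-4795066), of the large subunit, was at 508 and 572 CPM in WT and 394 and 299 CPM in cKO and fell by 0.64 (SE 0.14, edgeR adjusted p = 0.0424). In each of these genes cKO 2 was the lowest library, and cKO 1 lay between it and the WT libraries. *Rpl39* is X-linked, and 14 exonic bases of *Rps2* and 183 of *Rpl28* lie opposite another gene, so that without a stated strand setting reads there cannot be told apart. The part of sex and of these overlaps in the results was not tested. Leaving out WT 2 ended all 3 calls (edgeR adjusted p = 0.0642 for *Rps2*, 0.0908 for *Rpl39* and 0.331 for *Rpl28*), with log2 fold changes of -0.87, -0.81 and -0.55. Over all alternatives the adjusted p of *Rps2* lay between 1.17e-11 and 0.0642, that of *Rpl39* between 1.42e-06 and 0.0908, and that of *Rpl28* between 5.36e-07 and 0.331.

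**Figure D2:**
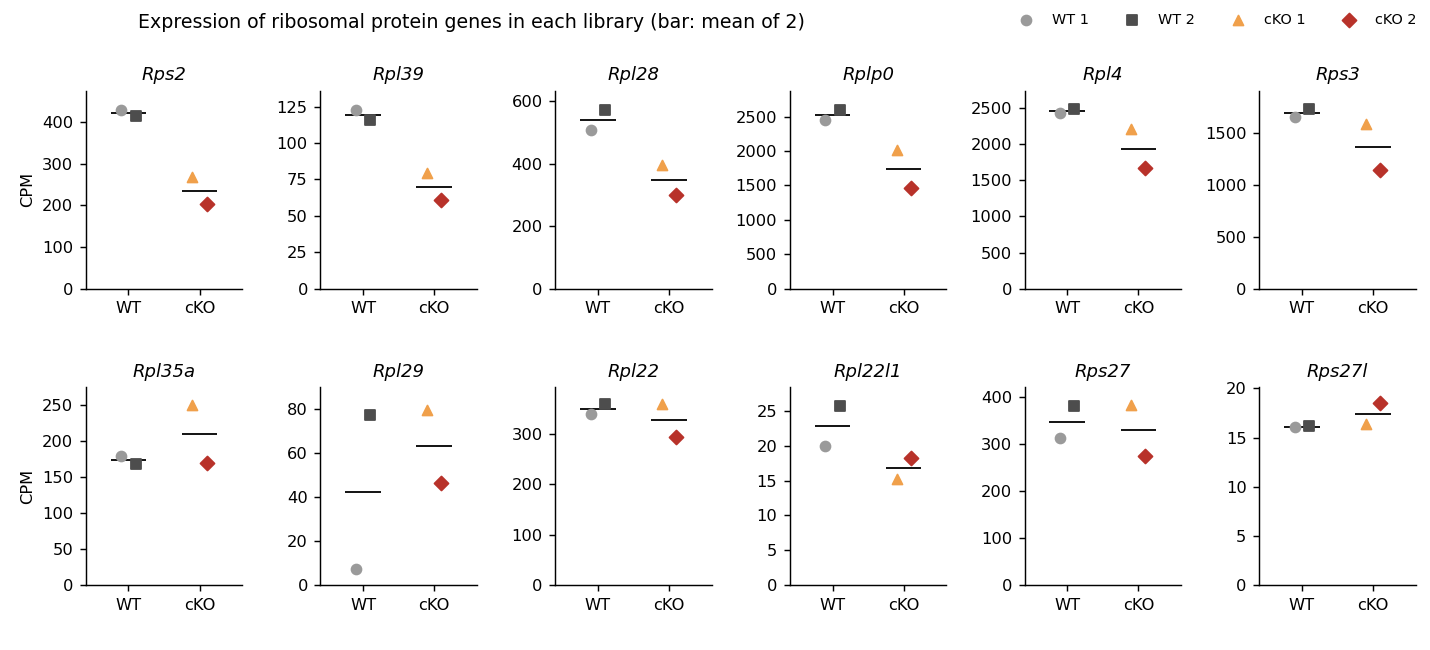
CPM of 12 ribosomal protein genes in each library, with the mean of the 2 libraries of a genotype as a bar and an axis from 0 in every panel. In *Rps2*, *Rpl39* and *Rpl28*, the called genes, both cKO points lie below both WT points, in *Rpl35a* cKO 1 (251) lies above the other libraries (169 to 180), and in *Rpl29* WT 1 (7.19) lies apart from the others (46.3 to 79.5).

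The number of calls rested strongly on single libraries, and the sign of the median fold change of each subunit did not. With the same edgeR test, 5 members were called without WT 1 (3.62% of all genes were called in that fit), 1 without WT 2 (*Rpl29*, higher in cKO, against 1.39% of all genes) and 69 without cKO 1 (all lower, against 11.7% of all genes). Without cKO 2, where 13.8% of all genes were called, 16 were, of which 14 were lower and included *Rps2*, *Rpl39* and *Rpl28*. Each of these fits leaves a genotype with 1 library, whose spread is taken to be like that of the other genotype. The median log2 fold change ranged from -0.54 to -0.16 in the large subunit and from -0.62 to -0.09 in the small subunit over these fits. The values nearest 0 were those without cKO 2 and the values farthest from it were those without cKO 1.

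The other genes among the 3 lowest fold changes of each subunit did not pass the test, nor did *Rpl13* (-0.61, edgeR adjusted p = 0.0924), the next lowest of the large subunit. *Rpl37a*, a zinc-binding large subunit protein, was at 313 and 311 CPM in WT and 238 and 165 CPM in cKO (log2 fold change -0.63, edgeR adjusted p = 0.0614). *Rps29*, a zinc-binding small subunit protein, was at 130 and 136 CPM against 107 and 70.6 (-0.58, edgeR adjusted p = 0.107). *Rps27a*, which is made as a fusion with ubiquitin, was at 126 and 121 CPM against 104 and 62.7 (-0.56, edgeR adjusted p = 0.168). In *Rpl37a*, *Rps29* and *Rps27a* the genotypes did not overlap, and cKO 2 was the lowest library. The ribosomal stalk recruits the elongation factors to the ribosome, and none of its 3 genes passed the test. *Rplp0*, its base, was at 2447 and 2605 CPM in WT and 2014 and 1461 CPM in cKO (-0.54, edgeR adjusted p = 0.122). *Rplp1* was at 354 and 376 CPM against 284 and 228 (-0.51, edgeR adjusted p = 0.0540), and *Rplp2* at 859 and 893 CPM against 883 and 646 (-0.20, edgeR adjusted p = 0.537). The genotypes did not overlap in *Rplp0* and *Rplp1* but did in *Rplp2*, in which cKO 1 lay between the WT libraries.

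Beside *Rplp0* (-0.54, above), the most abundant members by mean CPM over the 4 libraries had values from -0.35 to -0.15. *Rpl4*, whose protein reaches into the exit tunnel, was at 2437 and 2494 CPM in WT and 2206 and 1672 CPM in cKO (-0.35, edgeR adjusted p = 0.281). *Rpl8*, near the catalytic centre of the large subunit, was at 1256 and 1332 CPM against 1228 and 840 (-0.32, edgeR adjusted p = 0.356). *Rps3*, at the message entry of the small subunit, was at 1658 and 1738 CPM against 1594 and 1142 (-0.31, edgeR adjusted p = 0.351). In *Rpl4*, *Rpl8* and *Rps3* both cKO libraries lay below both WT libraries, cKO 1 by less than cKO 2. Against the WT mean, cKO 1 was at -0.16, -0.07 and -0.09 on the log2 scale in these genes. *Rps16* was at 1071 and 1244 CPM against 1116 and 740 (-0.32), and *Rps15* at 1124 and 1232 against 1257 and 862 (-0.15), and in both the genotypes overlapped. Per kilobase of mRNA, with the length of the principal GENCODE transcript, the highest WT levels were those of *Rps15* (2355 CPM per kilobase), *Rpl32* (2145) and *Rplp0* (1860). Among tested members that are neither a paralogue nor an annotated pseudogene, *Rps10* (10.9) and *Rpl21* (12.8) were lowest. *Rps10* shares 475 exonic bases with *RPS10-NUDT3* on the same strand, and the part of this in its low level was not tested. Members with near-identical copies lose reads that align to more than 1 place, so an order of levels between genes is uncertain, and 63 of the members have at least 1 symbol ending in -ps, a pseudogene named after them, in the tables.

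*Rps6*, the substrate of S6 kinase, was at 383 and 399 CPM in WT and 409 and 287 CPM in cKO (-0.17). *Rpsa*, also known as a laminin receptor, was at 613 and 593 CPM against 647 and 456 (-0.13). In each the cKO 1 value was above both WT values and the cKO 2 value below them. *Rpl5* and *Rpl11*, named here after their values were seen, bind MDM2 with the 5S RNA and stabilise p53 when ribosome assembly fails. *Rpl5* had a log2 fold change of -0.40 and *Rpl11* of -0.29, and neither passed the test. *Rack1*, a signalling scaffold bound to the small subunit, lies outside the symbol pattern and was at 1891 and 1891 CPM in WT and 1668 and 1229 CPM in cKO (-0.38, edgeR adjusted p = 0.233). Also outside the pattern, *Rps3a1* had -0.11 and *Fau* -0.17, and neither was called.

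Only 4 of the tested members had a positive fold change, and none of these passed the test. *Rpl29* had 47, 344, 417 and 218 counts in WT 1, WT 2, cKO 1 and cKO 2, or 7.19, 77.1, 79.5 and 46.3 CPM. Its value of 0.66 (SE 0.72, edgeR adjusted p = 0.684) rests on WT 1 and was -0.28 without that library. *Rpl35a* was at 180 and 169 CPM in WT and 251 and 170 CPM in cKO (0.27, edgeR adjusted p = 0.421), and *Rpl21* at 25.4 and 21.96 CPM against 34.5 and 20.6 (0.22, edgeR adjusted p = 0.674). Both were high in cKO 1 alone, and without it had values of -0.042 and -0.21. *Rps27l*, the fourth, is described with the paralogues.

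The genotypes did not overlap in 55 of the 81 tested members. In 54 of them (66.7%) both cKO libraries were below both WT libraries, against 25.4% of all genes tested, and in *Rps27l* alone both were above, against 24.8% of all genes. The share was 33 of 49 in the large subunit and 21 of 32 in the small subunit. Taken on its own, cKO 1 was below both WT libraries in 55 members (67.9%, against 40.5% of all genes) and above both in 16 (against 39.2%), with a median of -0.14 on the log2 scale against the WT mean. The cKO 2 library was below both WT libraries in 76 members (93.8%, against 40.6% of all genes) and above both in 1 (against 39.4%), with a median of -0.57. It was also below cKO 1 in 75 members (against 51.0% of all genes), with a median step of -0.47, whereas WT 2 was above WT 1 in 56 members (against 50.1%) with a median step of 0.05. The difference between the cKO libraries was thus larger than that between cKO 1 and the WT mean. The share of reads outside features and the mitochondrial share set cKO 2 apart. The share of aligned reads with more than 1 place was 13.96% and 14.29% in WT, 13.3% in cKO 1 and 11.8% in cKO 2, in the same order over the libraries as the ribosomal protein share. The B cell and myeloid sums were highest and the red cell sum lowest in cKO 1, the CD8 T cell sum was lowest in cKO 2, and the part of all these values in the result was not tested.

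**Figure D3:**
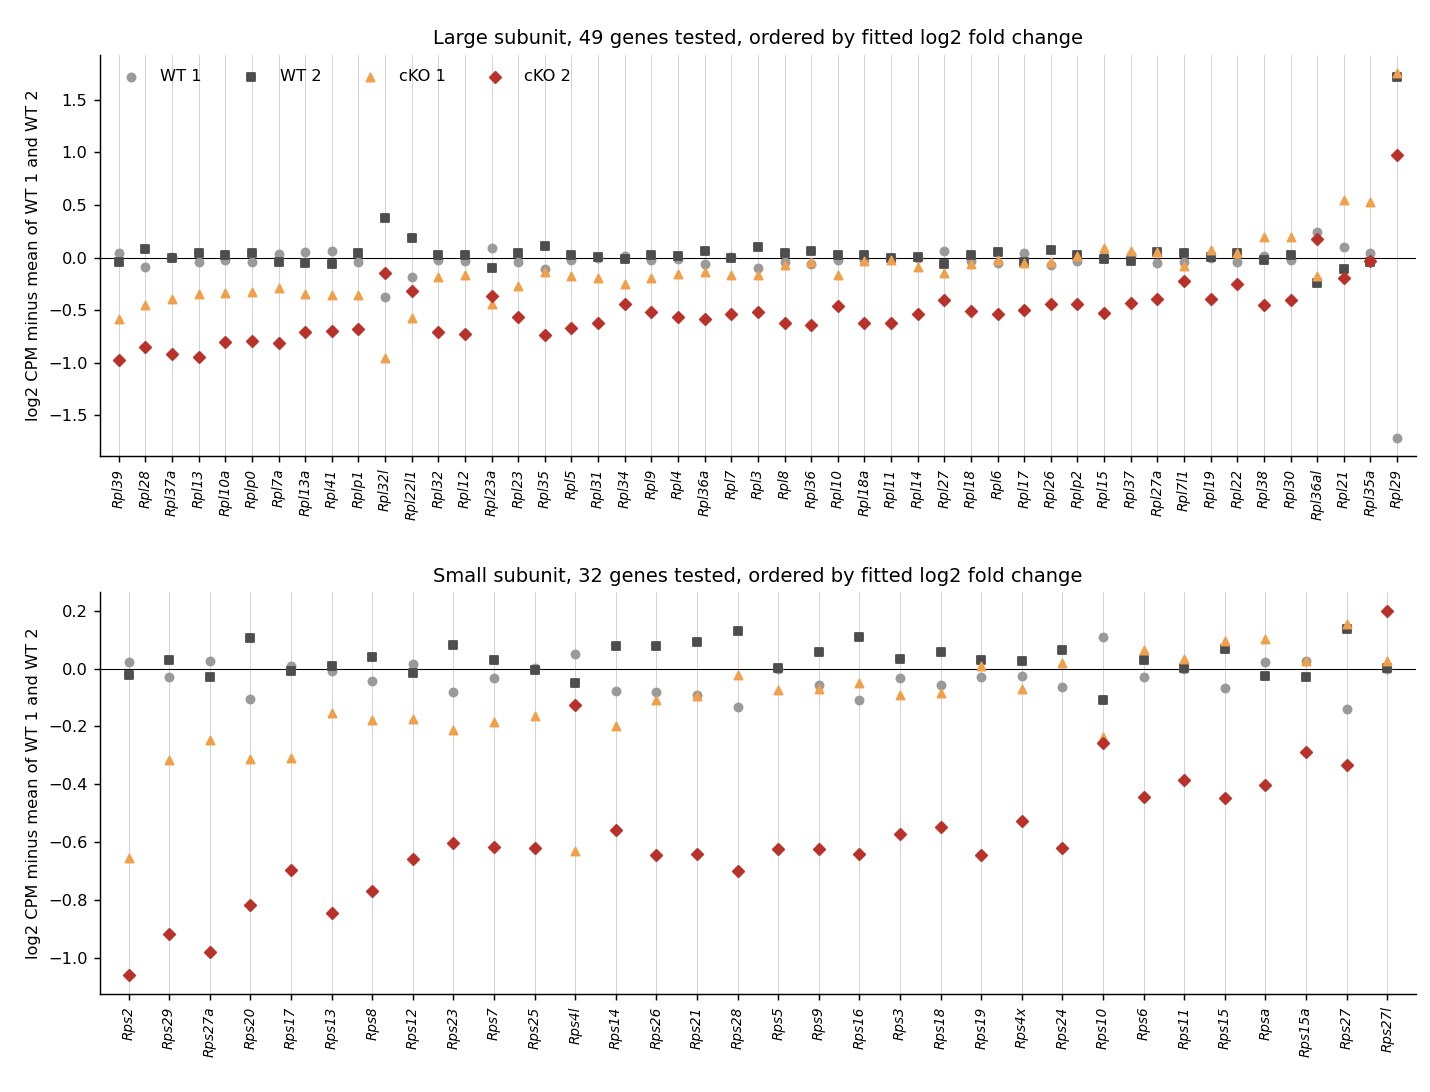
log2 CPM of every tested member minus the mean of WT 1 and WT 2, by library, for the large (49 genes, top) and small (32 genes, bottom) subunit, ordered by fitted log2 fold change, with separate vertical scales. The cKO 2 points lie under the WT points for 76 of the 81 genes, and the cKO 1 points start under them at the left and reach them at the right.

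The small shift in cKO 1 was unevenly spread over the members. Its median against the WT mean was -0.16 in the large subunit and -0.09 in the small subunit, where the cKO 2 medians were -0.53 and -0.62. By abundance, members over 500 mean CPM (26 genes) had a median of -0.07 in cKO 1 and -0.62 in cKO 2, those from 100 to 500 (41 genes) had -0.15 and -0.56, and those under 100 (14 genes) had -0.29 and -0.24. The fitted log2 fold changes of these classes were alike, with medians of -0.32, -0.34 and -0.31. They were also alike for the 29 members with an annotated snoRNA gene in an intron (-0.35) and the 52 without (-0.32), and for the 4 X-linked and 77 autosomal members (-0.32 and -0.33). Outside *Rpl39*, the X-linked members were *Rpl10* (-0.30), *Rpl36a* (-0.34) and *Rps4x* (-0.28). Members with 5 or more -ps symbols (23 genes) had a median of -0.30, and those with none (18 genes) -0.32. The 22 members whose exons overlap another gene had -0.39 and the 59 without overlap -0.32.

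Paralogues were low next to their parents, and with 2 libraries against 2 the exact test could not show a shift between them. *Rpl22l1*, the paralogue of *Rpl22*, was at 20.04 and 25.8 CPM in WT and 15.2 and 18.3 CPM in cKO (-0.44, edgeR adjusted p = 0.279), while *Rpl22* was at 340 and 359 CPM against 361 and 294 (-0.09). *Rpl22l1* made up 5.57% and 6.69% of the counts of the pair in WT and 4.06% and 5.85% in cKO, and the genotypes overlapped (exact permutation p = 0.667). *Rps27l*, known as a p53 target, was at 16.1 and 16.1 CPM against 16.4 and 18.5 (0.11, edgeR adjusted p = 0.802), and *Rps27* at 314 and 380 against 384 and 274 (-0.07). *Rps27l* took 4.87% and 4.07% of the pair in WT and 4.09% and 6.31% in cKO (exact permutation p = 0.667). *Rpl7l1* was at 15.4% and 16.2% of its pair with *Rpl7* in WT and 16.6% and 18.9% in cKO, the only pair without overlap (log2 ratio 0.20, exact permutation p = 0.333), and the log2 ratio was 0.080 without cKO 2 and 0.31 without cKO 1. *Rpl36al* was at 2.13% and 1.41% of its pair with *Rpl36a* in WT and 1.69% and 2.90% in cKO, on 17 to 35 counts. It shares 332 exonic bases with *Gm49383* on the same strand, and the part of this in its low count was not tested. The pseudogene *Rps4l* was at 0.416% and 0.374% of its pair with *Rps4x* in WT and 0.267% and 0.520% in cKO, on 11 to 22 counts. Of 8 pairs 5 had the counts for a test, and the exact permutation p adjusted over the 5 was at least 0.833. *Rpl39l*, *Rpl3l* and *Rpl10l* had no library above 3 counts, where 3 counts are 0.458 to 0.667 CPM before TMM scaling.

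The ribosome's other genes were read from lists in the same fit. Ribosome biogenesis genes, which make and process ribosomal RNA and assemble the subunits, had a shift of like size: 48 of 50 had a negative fold change, with a median of -0.29, and 5 passed the test, all lower in cKO, against 50.2% of all genes under 0, 4.30% called and 1.95% called lower. *Npm1*, the nucleolar protein nucleophosmin, was at 420 and 396 CPM in WT and 289 and 293 CPM in cKO and fell by 0.49 (edgeR adjusted p = 0.0267). *Dkc1*, the pseudouridine synthase of the box H/ACA particles, was at 95.1 and 95.4 CPM against 66.1 and 64.2 and fell by 0.55 (edgeR adjusted p = 0.0252). The 2 cKO libraries were alike in *Npm1* and *Dkc1*. Over the ribosomal protein genes tested, the median step from cKO 1 to cKO 2 was -0.47 on the log2 scale. The other calls were *Wdr12*, of the PeBoW complex (fell by 0.79), *Rrs1*, which helps to place the 5S particle (fell by 0.71), and *Tsr1*, of small subunit maturation (fell by 0.54). Over the list the median against the WT mean was -0.20 in cKO 1 and -0.36 in cKO 2, and the median fold change was -0.19 without WT 1. The calls rested on the libraries: 1 gene was called without WT 1, 0 without WT 2 (15 at an unadjusted p under 0.05), 18 without cKO 1 and 13 without cKO 2, and 1 with DESeq2 (against 2.90% of all genes). The shares of all genes called in the fits without a library were 3.62%, 1.39%, 11.7% and 13.8% in the same order.

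Other messages known to carry the TOP motif had 14 of 15 fold changes under 0 and a median of -0.36, which was -0.18 without cKO 2. *Hnrnpa1*, an RNA-binding splicing factor, was at 257 and 272 CPM in WT and 161 and 189 CPM in cKO and fell by 0.59 (edgeR adjusted p = 0.0203), and *Snhg1*, a snoRNA host, fell by 0.56 (edgeR adjusted p = 0.0431). *Gas5*, also a snoRNA host, had a value of 0.45 and was the sole member of this list above 0. Its WT libraries were far apart at 93.5 and 176 CPM, against 190 and 176 in cKO. *Hnrnpa1* was not called without WT 2, and *Snhg1* was not called without WT 1, without WT 2 or with DESeq2. The list of elongation factors also holds *Eef1e1* and *Eef2k*, whose products are not elongation factors, and the name covers the whole list below. It had 8 of 8 values under 0, with no call and a median of -0.26, -0.06 in cKO 1 and -0.45 in cKO 2. *Eef1a1*, which brings aminoacyl-tRNA to the ribosome, was at 5839 and 6155 CPM in WT and 5492 and 4210 CPM in cKO (-0.31, edgeR adjusted p = 0.400). Subunits of initiation factor 3 had 12 of 13 under 0, with no call and a median of -0.14, -0.07 in cKO 1 and -0.28 in cKO 2.

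Mitochondrial ribosomal proteins, which form the separate ribosome of the mitochondrion, had 54 of 77 values under 0, with no call and a median of -0.09. Genes of TOP message and growth control had 7 of 14 under 0 and a median of -0.01, with no call. Among them *Myc*, which drives ribosome production, was at 196 and 175 CPM in WT and 156 and 114 CPM in cKO (-0.46, edgeR adjusted p = 0.136). *Larp1*, the TOP message binding protein, was at 278 and 279 CPM against 230 and 231 (-0.27, edgeR adjusted p = 0.153), and *Mtor* at 81.1 and 76.6 against 93.6 and 93.3 (0.24, edgeR adjusted p = 0.255). The genotypes did not overlap in these 3 genes, nor in 9 of the 14 in all, 4 lower and 5 higher in cKO, where 25.4% of all genes were lower and 24.8% higher in this way. The 4 tested genes of the nucleolar stress response had a median of 0.05 and no call. In the lists without a call by edgeR's quasi-likelihood test, the unadjusted p was under 0.05 for 9 mitochondrial ribosomal protein genes, 1 of initiation factor 3, 3 of growth control and 0 of the elongation and nucleolar stress lists, against 19.1% of all genes. DESeq2 called 0 in each of these lists (2.90% of all genes), and edgeR's likelihood ratio test called 4 of the 77 mitochondrial ribosomal protein genes and 0 in the others (8.84% of all genes). Without a low-count filter, 4 mitochondrial ribosomal protein genes, 1 elongation factor and 1 growth control gene were called (5.72% of all genes). With replicate number as a block, 4 mitochondrial ribosomal protein genes and 1 growth control gene were called (9.39% of all genes). Without cKO 1, where 11.7% of all genes were called, edgeR's quasi-likelihood test called 5 of 8 elongation factors, 5 of 13 subunits of initiation factor 3, 5 of 77 mitochondrial ribosomal protein genes and 2 of 14 growth control genes. Without cKO 2 it called 1 gene in each of the last 3 lists named. Of the T cell state markers, the summed naive markers were at 3708 and 4178 CPM in WT and 4483 and 3309 CPM in cKO, and the activation markers at 608 and 577 against 648 and 679. The naive sum was thus highest in cKO 1 and lowest in cKO 2, and its part in the ribosomal protein values was not tested.

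**Figure D4:**
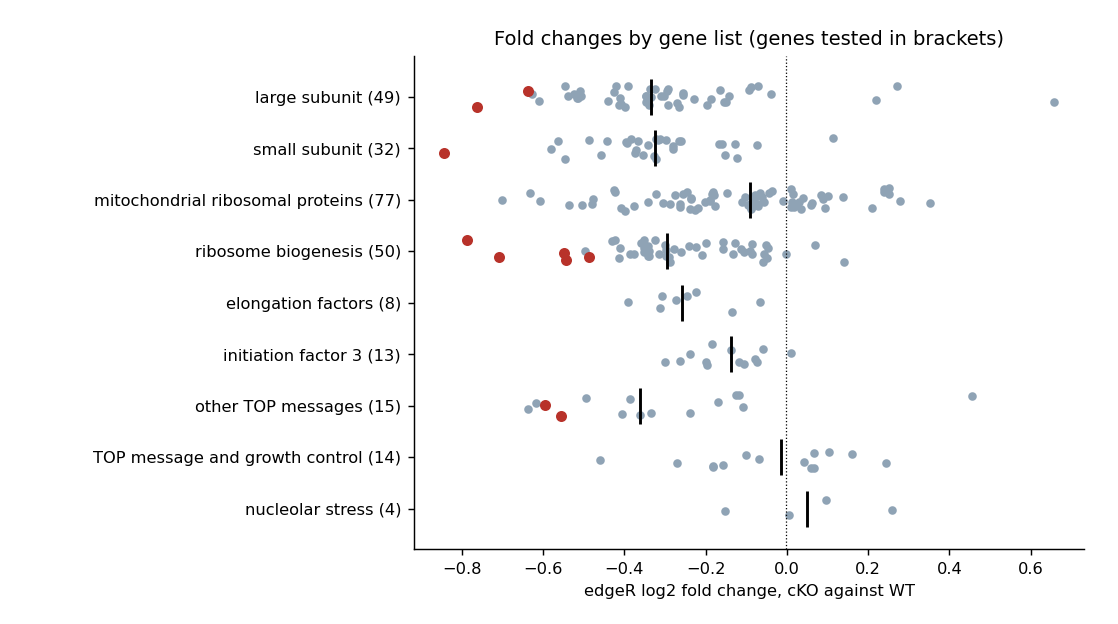
edgeR log2 fold change, cKO against WT, of each tested gene in the ribosomal protein subunits and in 7 lists of related genes, with a bar at the median of each and red points for genes with an adjusted p under 0.05. The dotted line is the median over all genes tested, and the medians of the cytosolic ribosomal proteins (-0.33 and -0.32), the other TOP messages (-0.36) and ribosome biogenesis (-0.29) lie to its left, with growth control (-0.01) close to it.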

How the data were processed

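The authors prepared libraries from mRNA with a NEBNext Ultra kit, aligned reads to mm10 with HISAT2 2.1.0, counted reads per gene with HTSeq (0.11.1 in the submitters' processing notes) and deposited 1 table of raw counts per library. The annotation and strand setting are not given in the sources used here. Summary lines of HTSeq were left out of library sizes and tests.

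Counts of all genes were filtered with filterByExpr, scaled by TMM (factors 0.981 to 1.02) and tested with the quasi-likelihood F test of edgeR 4.0.16 (limma 3.58.1, R 4.3.3) for cKO against WT, two-sided, with no covariate and Benjamini-Hochberg adjustment, and calls were made at an adjusted p under 0.05. CPM is per 1000000 TMM-scaled counts. SE is the absolute log2 fold change over the root of F. Shares and ratios were compared over libraries by exact permutation in scipy 1.17.1. Plots used matplotlib 3.10.9 in Python 3.11.15. DESeq2 1.42.0 was an alternative. The fit was tested on simulated data.

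Depth was 4495902 to 6555699 gene counts, and a count of 3 was taken as the floor. The chi-square per degree of freedom was 2.83 between the WT and 6.68 between the cKO libraries, so neither pair was 1 library deposited again. Positions, lengths and overlaps came from GENCODE M21 (GRCm38, the same assembly as mm10), where all 87 members were found. Members and lists were chosen with earlier results of these data known. Genes named were the members called, the 3 most abundant and the 3 highest and 3 lowest fold changes of each subunit, the paralogues and their parents, the X-linked and stalk members, *Rpsa*, *Rps6*, *Rack1* and *Satb1*, and the called genes of each list. Others were named after their values were seen. p-values measure the spread between these libraries.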

Additional observations from a re-analysis of the deposited data

How the results depend on the processing

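Comparisons rest on 2 mice per genotype, and the *Rpl36al* and *Rps4l* ratios on 11 to 35 paralogue counts. Against 3 ribosomal protein genes called, 5 were called on total counts without scaling factors (4.39% of all genes called). Without a low-count filter 41 were called (40 lower, 5.72% of all genes), 15 by the edgeR likelihood ratio test (8.84%) and 9 by DESeq2 (2.90%). Dropping the members whose exons overlap another gene, a setting chosen after seeing the data, removed *Rps2* and *Rpl28* and left *Rpl39*. The fit was not repeated for this setting, so its outcome followed from the overlaps alone. At an adjusted p under 0.01 edgeR's quasi-likelihood test called 0 (1.23% of all genes), while 36 had an unadjusted p under 0.05. *Rps2*, *Rpl39* and *Rpl28* were among the calls with total counts, without a filter, by the likelihood ratio test and by DESeq2. Leaving out each library in turn gave 1 to 69 calls. With the replicate block 24 were called, all lower (9.39% of all genes), but the number only names mice (same-number deviations correlated at 0.0642 over all genes), so it does not pair them. Relative log expression scaling (4.38% of all genes), TMM without the members (4.30%) and a 1 CPM filter (4.03%) gave 3 each. The small subunit median was -0.62 without cKO 1 and -0.62 to -0.090 over the libraries left out, and the large subunit median -0.54 to -0.16. The large to small ratio, -0.03 as log2, was 0.014 without the 3 most abundant members of each subunit and -0.057 to 0.0016 over the libraries left out. Paralogue log2 ratios ranged over these from -0.13 to 0.53 for *Rps27l*, -0.040 to 0.76 for *Rpl36al*, -0.56 to 0.40 for *Rps4l*, 0.080 to 0.31 for *Rpl7l1* and -0.62 to -0.065 for *Rpl22l1*. Log2 fold changes turned sign for named genes only when a library was left out. Their ranges were -0.28 (without WT 1) to 3.12 (without WT 2) for *Rpl29*, and -0.24 (without WT 2) to 0.26 (without WT 1) for *Rpl36al*. Between cKO 1 and cKO 2 left out in turn, they were -0.042 to 0.52 for *Rpl35a*, -0.21 to 0.53 for *Rpl21*, -0.45 to 0.098 for *Rps15*, -0.34 to 0.15 for *Rps27*, -0.29 to 0.027 for *Rps15a*, -0.25 to 0.047 for *Rpl22*, -0.44 to 0.014 for *Rplp2*, -0.41 to 0.10 for *Rpsa* and -0.45 to 0.068 for *Rps6*. For *Satb1* they were -0.13 (without cKO 1) to 0.042 (without WT 2). *Rpl36al* also turned without cKO 1 (0.12), *Rps27* without WT 2 (0.065) and *Satb1* without cKO 2 (0.032). The cause of these changes was not tested.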
